A study of Homo sapiens with 9 samples.

Results

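The Arp2/3 complex was followed through its 9 subunit genes, ACTR2, ACTR3, ARPC1A, ARPC1B, ARPC2, ARPC3, ARPC4, ARPC5 and ARPC5L, which were picked by symbol from a table of 19969 genes. All 9 symbols were found. The table holds RNA-seq read counts for 9 ribosomal-RNA-depleted libraries of HEK293T, an established human embryonic kidney cell line that carries the SV40 large T antigen. In a series on light-controlled editing of N6-methyladenosine, a methyl mark on RNA, 6 libraries carry the name FHY1-M3 with a guide RNA (sgRNA): 2 with an ACTB sgRNA, 2 with a con sgRNA and 2 with a non-target sgRNA. Another 3 libraries are called input. The labels do not give the light each culture received, whether total or immunoprecipitated RNA was sequenced with FHY1-M3, whether the input cells carried the construct, or what the con guide targets. The con libraries appear as con_ACTB_sgRNA in the count table and as con_sgRNA in the sample titles. The origin of the replicates is not stated. The spread between libraries, which is what the p-values rest on, may thus be technical only.

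The Arp2/3 complex starts new actin filaments as branches on the sides of existing ones and so builds the branched networks of lamellipodia, endocytic sites and moving vesicles. ARP2 (ACTR2) and ARP3 (ACTR3) resemble actin and form the first subunits of the branch. ARPC2 and ARPC4 form the structural core, ARPC1 and ARPC3 attach to it, and ARPC5 tethers ARP2. ARPC1 and ARPC5 each exist as products of paralogous genes, ARPC1A or ARPC1B and ARPC5 or ARPC5L, and a given complex holds 1 of each pair. Nucleation promoting factors of the WASP and WAVE families switch the complex on, and coronins, GMF proteins and ARPIN oppose it or take branches apart.

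The FHY1-M3 libraries held 2900021 to 3802681 counts each. The inputs were shallower, at 350413 to 643954 counts, and their levels carry more counting error. Other features moved with the same division. Mitochondrial mRNAs took 0.589% ± 0.0262 of counts in the FHY1-M3 libraries (SD, n = 6) and 7.67% ± 0.142 in the inputs (n = 3). Heat shock transcripts (HSPA6, HSPA1A, HSPA1B, DNAJB1, HSPH1 and HSP90AA1 summed) took 0.620% ± 0.0176 and 0.156% ± 0.0144. Results against input after thinning to the input depth stand beside each call among the subunits. For the genes that act with the complex they are not given gene by gene. With mitochondrial mRNAs and histone genes removed, the same 3 subunits passed, at log2 values of 1.49 for ARPC5L (adjusted p = 0.000443), 0.62 for ARPC2 (0.0146) and 0.60 for ARPC3 (0.0342). The part of the heat shock transcripts was not tested. All 7 genes listed as typical of HEK293T, among them VIM, NEFM and LIN28B, were detected in both groups. Blood cell markers summed to 6.99 to 25.5 CPM (counts brought to a common library size, with scaling by trimmed mean of M values, TMM) in the FHY1-M3 libraries and 0 to 27.6 CPM in the inputs, with 4 of 7 at 0 in each group and PTPRC, CD3E and LYZ at 0 throughout. Fibroblast markers summed to 23.1 to 54.7 and 15.7 to 75.2 CPM, with 2 of 6 at 0 in the FHY1-M3 libraries and 1 in the inputs, and COL1A2 at 0 throughout. The 4 endothelial markers summed to 0 to 3.12 and 5.23 to 6.5 CPM, with CDH5 at 0 throughout and 1 of 4 at 0 in each group. In such bulk libraries, fewer cells of a type and less RNA per cell cannot be told apart.

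The comparison of the FHY1-M3 libraries with input asked which subunit transcripts take a different share of the RNA in the 2 kinds of library. ARPC5L rose 2.82-fold, and ARPC2 and ARPC3 rose 1.54-fold and 1.53-fold. No subunit fell. ACTR2, ACTR3, ARPC1A, ARPC1B, ARPC4 and ARPC5 did not pass the test. In edgeR's quasi-likelihood test with Benjamini-Hochberg adjustment over all genes at a threshold of 0.05, 3 of 9 subunits were thus called higher and 0 lower, while 11.4% of 13411 genes were called higher and 8.60% lower. The balance between directions turned with the scaling, with 1524 genes higher and 1153 lower under TMM and 1251 higher and 1343 lower under median-ratio factors. The same 3 subunits had FHY1-M3 and input libraries that did not overlap, against 14.9% of all tested genes higher without overlap. The median log2 fold change was 0.14 over the subunits, 0.22 without ARPC1B, which passed the low-count filter only through the inputs, and 0.04 over all genes tested. Together the subunits took 0.0922% ± 0.00473 of counts in the FHY1-M3 libraries (n = 6) and 0.0702% ± 0.0101 in the inputs (n = 3), a ratio of 1.31. The lowest FHY1-M3 library stood at 0.0864% and the highest input at 0.0809%. Without mitochondrial and histone counts the shares were 0.0929% ± 0.00475 and 0.0768% ± 0.0111, a ratio of 1.21, and the groups overlapped, with ACTB sgRNA replicate 1 at 0.0871% and input replicate 2 at 0.0886%.

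**Figure D1:**
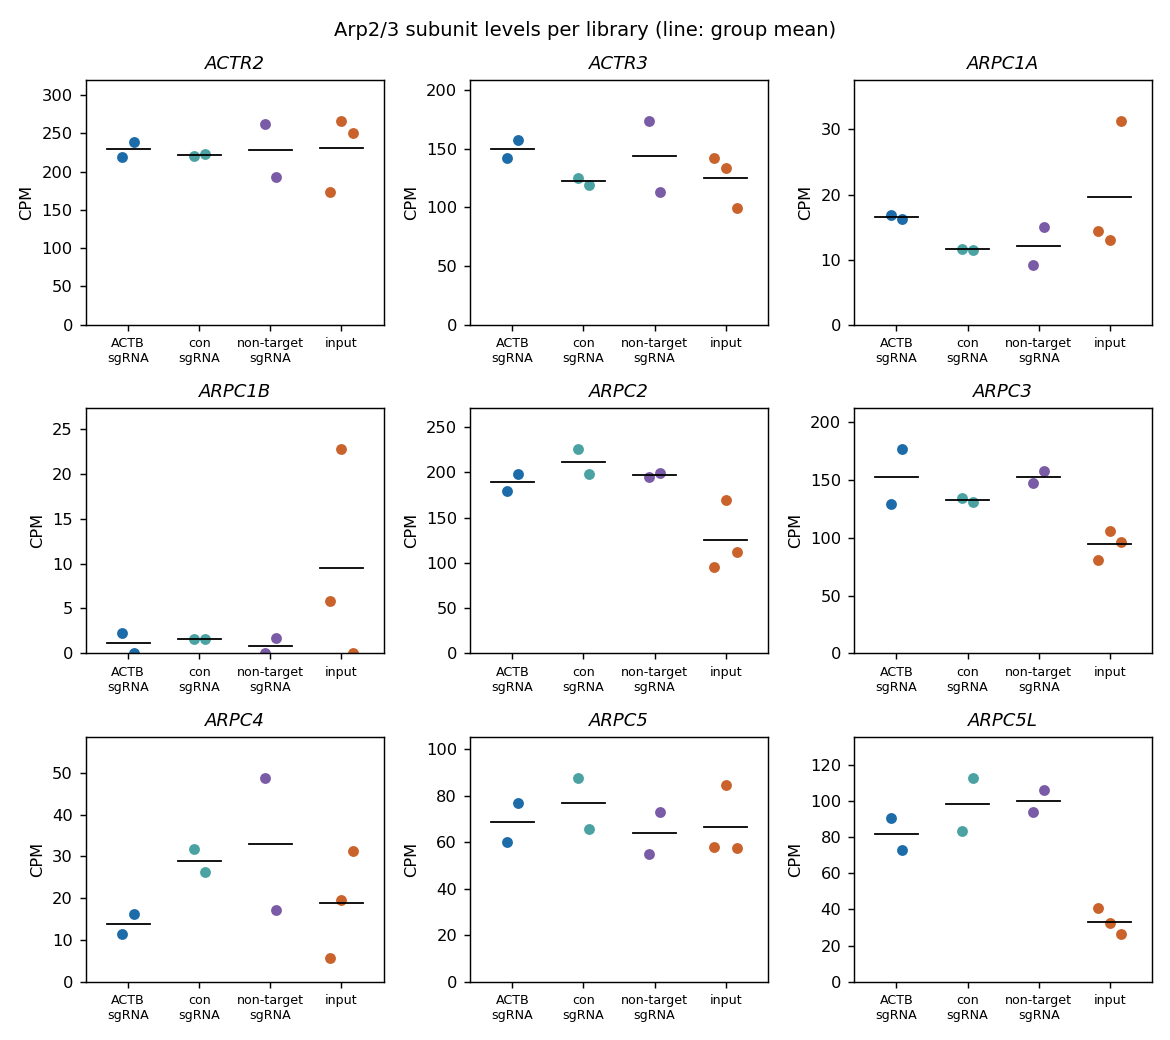
Level of each Arp2/3 subunit transcript in CPM (vertical axes, linear and starting at 0, with a scale of their own in each panel) by group (horizontal axis). Each point is 1 library and each line a group mean. The 3 input points of ARPC5L (26.1 to 40.5 CPM) lie below all 6 FHY1-M3 points (72.9 to 113 CPM). Those of ARPC5 lie among the FHY1-M3 points, and those of ACTR2 reach from below them to above them.

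ARPC5L encodes one form of the ARPC5 subunit (chromosome 9, 124862130 to 124877733, GRCh38.p14). It held 328 and 252 counts in the ACTB libraries, 320 and 430 in the con libraries and 350 and 310 in the non-target libraries. The inputs held 14, 20 and 10 counts. In scaled levels the FHY1-M3 libraries ran from 72.9 to 113 CPM, and the inputs stood at 40.5, 32.5 and 26.1 CPM. The highest input was therefore well under the lowest FHY1-M3 library. The means were 93.3 ± 14.6 CPM (n = 6) and 33.0 ± 7.18 CPM (n = 3), a log2 fold change of 1.5 (SE 0.30, 95% interval 0.89 to 2.11, adjusted p = 0.000381). It was the largest rise among the subunits. It passed in each guide group alone, at 1.31 for the ACTB sgRNA (adjusted p = 0.0101), 1.58 for the con sgRNA (0.00169) and 1.60 for the non-target sgRNA (0.00133), all against the same 3 inputs. In those comparisons 7.05%, 7.22% and 8.10% of genes were called higher. The rise was 1.27 (adjusted p = 0.00672) after random thinning of the FHY1-M3 counts to the input depth, and it passed in all 18 alternatives run, between 1.27 and 1.64.

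ARPC5, which encodes the other form of the subunit (chromosome 1, 183620846 to 183635783), held 204 to 338 counts in the FHY1-M3 libraries and 20, 52 and 22 in the inputs. Its levels were 54.8 to 87.9 CPM and 57.8, 84.5 and 57.5 CPM, and the groups overlapped. The log2 difference was 0.03 (SE 0.28, interval -0.53 to 0.60, adjusted p = 0.954), and the bounds of its interval are folds of 0.693 and 1.51. Its sign turned to -0.04 under median-ratio scaling and in DESeq2. Of the counts of the 2 paralogs, ARPC5L made up 60.1% and 48.6% in the ACTB libraries, 48.6% and 63.2% in the con libraries and 63.2% and 59.2% in the non-target libraries. In the inputs it made up 41.2%, 27.8% and 31.3%. Every input was below every FHY1-M3 library, although the 95% exact binomial intervals of input replicates 1 (24.6% to 59.3%) and 3 (16.1% to 50.01%) reach into the range of the FHY1-M3 libraries. These intervals cover counting error only. Pooled over libraries, the share was 57.2% against 31.9%. Gene length cancels in this comparison between libraries, but the share within a library is not a ratio of transcript numbers.

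**Figure D2:**
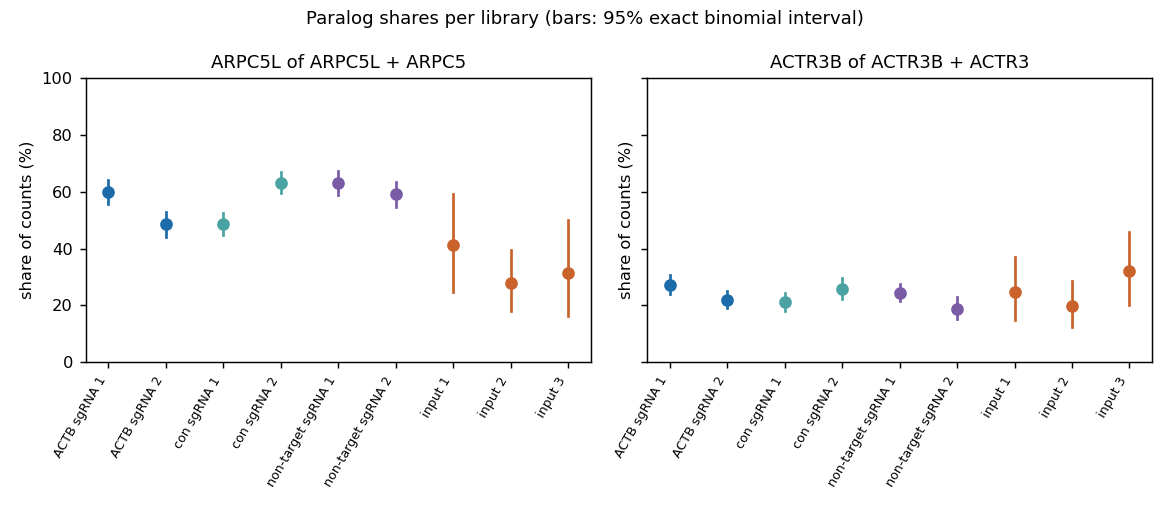
Share of ARPC5L in the summed counts of ARPC5L and ARPC5 (left) and of ACTR3B in those of ACTR3B and ACTR3 (right), in percent, for each of the 9 libraries, with 95% exact binomial intervals. The intervals use the counts as given and are too narrow if both reads of a pair were counted. The ARPC5L share is 48.6% or more in the FHY1-M3 libraries and at most 41.2% in the inputs, whereas the ACTR3B share runs from 18.7% to 27.1% and from 19.6% to 32.1%.

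ARPC2, a core subunit that contacts the mother filament (chromosome 2, 218217189 to 218254348), measured 180 and 198 CPM in the ACTB libraries, 226 and 198 in the con libraries and 195 and 200 in the non-target libraries. The inputs stood at 95.4, 169 and 112 CPM. All inputs were below all FHY1-M3 libraries, with input replicate 2 the closest. The means were 199 ± 14.9 CPM (n = 6) and 126 ± 38.6 CPM (n = 3), a log2 fold change of 0.63 (SE 0.18, interval 0.25 to 1.0, adjusted p = 0.013). Against each guide group alone the log2 values were 0.55 (ACTB, adjusted p = 0.102), 0.71 (con, 0.0261) and 0.61 (non-target, 0.0582). The call was lost without input replicate 1 (log2 0.47, adjusted p = 0.0700) or 3 (0.54, 0.0622) and after thinning to the input depth (0.52, 0.0628).

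ARPC3, a smaller subunit that lies next to ARP3 (chromosome 12, 110434823 to 110450337), measured 129 and 177 CPM in the ACTB libraries, 135 and 131 in the con libraries and 147 and 158 in the non-target libraries. The inputs stood at 80.9, 106 and 96.7 CPM, again all below the FHY1-M3 libraries. The means were 146 ± 18.6 CPM (n = 6) and 94.4 ± 12.5 CPM (n = 3), a log2 fold change of 0.61 (SE 0.21, interval 0.20 to 1.03, adjusted p = 0.0306). Against each guide group alone the values were 0.68, 0.48 and 0.68 in the order ACTB, con, non-target, and none passed (adjusted p = 0.0644, 0.222 and 0.0613). This call was close to the threshold. It was lost without ACTB sgRNA replicate 2 (adjusted p = 0.104), con replicate 1 (0.0721) or 2 (0.0663), non-target replicate 1 (0.0501) or 2 (0.0586) and input replicate 1 (0.0867) or 3 (0.0599), with log2 values between 0.52 and 0.63. It was also lost under median-ratio scaling (0.0621), with a mean of at least 10 CPM (0.0566), with counts halved to read pairs (0.0645) and after thinning (0.0798).

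**Figure D3:**
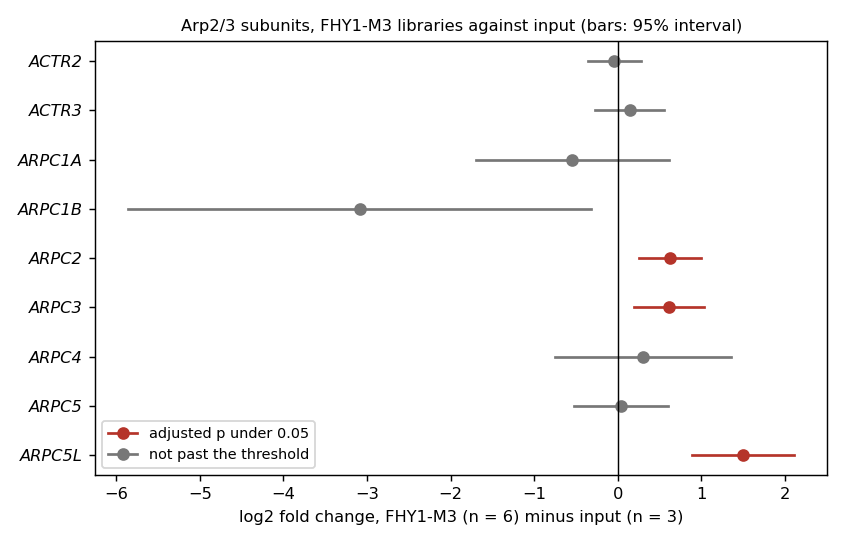
Log2 fold change of each subunit (horizontal axis) between the FHY1-M3 libraries and input, with 95% intervals from the quasi-likelihood fit; red marks an adjusted p under 0.05. ARPC5L, ARPC2 and ARPC3 lie to the right of 0 with intervals that exclude it. ARPC1B, whose direction was fixed by the low-count filter, has the widest interval.

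The stretches just before the annotated starts of the 3 called genes and of ARPC5, the paralog that did not pass, are shown side by side. Whether these sequences bear on the differences against input was not tested. They are RefSeq sequences of GRCh38.p14, written 5′ to 3′ on the strand of the gene, and capitals mark the GC box, GGGCGG or its complement CCGCCC. They span chr9:124861945-124862129 (plus strand), chr2:218217004-218217188 (plus), chr12:110450338-110450522 (minus) and chr1:183635784-183635968 (minus).
ARPC5L: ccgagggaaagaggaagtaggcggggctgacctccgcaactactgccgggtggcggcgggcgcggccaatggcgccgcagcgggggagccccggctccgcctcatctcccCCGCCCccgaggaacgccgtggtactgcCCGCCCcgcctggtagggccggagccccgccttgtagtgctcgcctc
ARPC2: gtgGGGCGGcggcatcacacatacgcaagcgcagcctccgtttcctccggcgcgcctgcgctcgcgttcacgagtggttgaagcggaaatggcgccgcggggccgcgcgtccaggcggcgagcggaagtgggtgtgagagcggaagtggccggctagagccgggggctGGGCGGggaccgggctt
ARPC3: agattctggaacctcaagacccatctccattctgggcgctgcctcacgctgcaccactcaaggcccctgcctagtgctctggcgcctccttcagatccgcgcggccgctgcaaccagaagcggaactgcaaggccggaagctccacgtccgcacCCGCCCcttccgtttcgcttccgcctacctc
ARPC5: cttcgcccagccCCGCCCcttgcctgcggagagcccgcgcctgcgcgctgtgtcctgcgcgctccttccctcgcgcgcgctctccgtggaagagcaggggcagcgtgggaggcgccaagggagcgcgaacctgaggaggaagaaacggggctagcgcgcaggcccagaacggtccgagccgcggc
The table of promoters held 8 of the 9 subunits, all but ARPC1B. Within 250 bases before the most upstream listed start, on both strands, 6 of 8 held a GC box, against 42.2% of 27305 promoters. A CCAAT box (CCAAT) was in 4 of 8 (33.0% of all), an ETS core (CCGGAAG) in 3 of 8, ACTR2, ARPC1A and ARPC3 (8.78%), and the palindromic NRF1 core in ARPC1A (1.13%). The heat shock element core GAANNTTC was in 0 of 8 (5.85%) and the CArG box in 0 of 8 (1.15%). Matches to different motifs were counted separately and may overlap. A match describes letters in this window and is not a measured site.

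Neither of the actin-related subunits passed between the 2 kinds of library. ACTR2 (chromosome 2, 65227831 to 65271253) measured 193 to 263 CPM in the FHY1-M3 libraries, with a median of 221 CPM, and 173, 267 and 251 CPM in the inputs. The input range enclosed that of the FHY1-M3 libraries. Its log2 difference was -0.04 (SE 0.16, interval -0.36 to 0.28, adjusted p = 0.89), and it was 0.01 when only library totals were used for scaling. ACTR3 (chromosome 2, 113889934 to 113962596) stood at 113 to 174 CPM against 142, 133 and 99.3 CPM, with a log2 difference of 0.14 (SE 0.20, interval -0.27 to 0.55, adjusted p = 0.677). The bounds correspond to folds from 0.779 to 1.21 for ACTR2 and from 0.831 to 1.46 for ACTR3. ACTR3B, which encodes a close relative of ARP3 and is no member of the list, stood at 42.3 ± 11.4 CPM (n = 6) and 41.9 ± 8.18 CPM (n = 3), a log2 difference of 0.03 (SE 0.36, adjusted p = 0.973). Its pooled share of the ACTR3 and ACTR3B counts was 23.6% against 24.2%. ACTR3C held 29 counts in the 6 FHY1-M3 libraries, 27 of them with the ACTB sgRNA, and 2 in the inputs, and it did not pass (adjusted p = 0.489). How the counting treated reads shared between such paralogs, or with processed pseudogenes, is not given in the sources used here, so the split between ACTR3, ACTR3B and ACTR3C is uncertain.

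The remaining subunits were measured with little precision. ARPC4, the second core subunit (chromosome 3, 9792518 to 9807101), held 41 and 56 counts in the ACTB libraries, 122 and 100 in the con libraries, 182 and 50 in the non-target libraries and 2, 12 and 12 in the inputs. Its levels were 11.3 to 48.9 CPM in the FHY1-M3 libraries and 5.78, 19.5 and 31.4 CPM in the inputs, so the groups overlapped widely. The log2 difference was 0.30 (SE 0.52, interval -0.75 to 1.35, adjusted p = 0.735). TADA3 and the read-through gene ARPC4-TTLL3 overlap ARPC4 in the annotation. Over all libraries TADA3 held 1479 counts and ARPC4-TTLL3 held 2. Without a known strand setting the reads of ARPC4 and TADA3 cannot be separated where they overlap. ARPC1A (chromosome 7, 99325898 to 99366262) stood at 9.13 to 16.9 CPM against 14.5, 13.0 and 31.4 CPM, with a log2 difference of -0.54 (SE 0.57, interval -1.70 to 0.61, adjusted p = 0.549). ARPC1B lies on the same chromosome at 99374259 to 99394816 and is the form that predominates in blood cells. It held 8, 0, 6, 6, 0 and 5 counts in the FHY1-M3 libraries and 2, 14 and 0 in the inputs. It passed the low-count filter only through the inputs, where it was the higher, so its direction was fixed by the filter. The log2 difference was -3.09 (SE 1.37, interval -5.85 to -0.32), with an unadjusted p of 0.0299 and an adjusted p of 0.109. This difference is not read as a change. ARPC1B made up 8.09% of the ARPC1A and ARPC1B counts in the FHY1-M3 libraries (25 of 309) and 39.0% in the inputs (16 of 41), but 10.5% in the inputs without replicate 2. It entered the test only where the inputs were in the fit. PDAP1 overlaps ARPC1B in the annotation, and without a known strand setting their reads cannot be separated.

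The comparison of the 3 guides asked whether the subunit transcripts differ with the guide. Since the target of the con guide is not given, comparisons with it may not vary the RNA to which the construct is directed. ACTB itself stood at 1347 ± 51.7, 1373 ± 2.77 and 1330 ± 11.5 CPM in the ACTB, con and non-target libraries (n = 2 each). No subunit passed between any pair of guides. For ACTB against non-target sgRNA, edgeR called 0 of 8 tested subunits, with 1 at an unadjusted p under 0.05, against 0.250% of 12808 genes called. For ACTB against con sgRNA it called 0 of 8, with 1 at an unadjusted p under 0.05 (0.0312% of genes called). For con against non-target sgRNA it called 0 of 8, with 0 at an unadjusted p under 0.05 (0.172%). Over all 12808 genes, 1001, 494 and 673 were at an unadjusted p under 0.05 in these 3 comparisons. DESeq2 also called 0 in each. ARPC1B had too few counts to be tested. The median log2 difference over the 8 subunits was 0.01, -0.05 and -0.05 in that order, beside -0.000456, 0.00276 and -0.00423 over all genes tested.

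ARPC4 was the subunit with an unadjusted p under 0.05. It measured 11.3 and 16.2 CPM in the ACTB libraries, 31.7 and 26.2 in the con libraries and 48.9 and 17.1 in the non-target libraries. The ACTB libraries were the lowest, but non-target replicate 2 lay just above them and far from non-target replicate 1. The log2 difference was -1.26 against non-target sgRNA (SE 0.47, interval -2.22 to -0.31, adjusted p = 0.475) and -1.07 against con sgRNA (SE 0.47, interval -2.02 to -0.12, adjusted p = 1). Without non-target replicate 1 the former was -0.31. These 2 comparisons share the ACTB libraries.

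ARPC5L differed by -0.28 between ACTB and non-target sgRNA (SE 0.23, interval -0.76 to 0.19), by -0.26 between ACTB and con sgRNA (SE 0.23) and by -0.03 between con and non-target sgRNA (SE 0.23). The guide groups were at 81.8 ± 12.6, 98.0 ± 20.9 and 99.98 ± 8.41 CPM, with differences between means below the SD of the con group. Between ACTB and non-target sgRNA, ACTR2 differed by 0.01 (SE 0.15), ACTR3 by 0.06 (SE 0.19), ARPC2 by -0.06 (SE 0.15), ARPC3 by 0.01 (SE 0.18), ARPC5 by 0.11 (SE 0.28) and ARPC1A by 0.46 (SE 0.60). The tightest of these, for ACTR2, had an interval of -0.30 to 0.31. Between ACTB and con sgRNA ACTR3 differed by 0.30 (SE 0.19) and ARPC1A by 0.51 (SE 0.60), and the values of ACTR2, ARPC2, ARPC3 and ARPC5 ran from -0.16 (ARPC2) to 0.21 (ARPC3). Between con and non-target sgRNA the differences ran from -0.23 (ACTR3) to 0.27 (ARPC5). Non-target replicates 1 and 2 were far apart for ACTR2 (263 and 193 CPM) and ACTR3 (174 and 113 CPM).

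**Figure D4:**
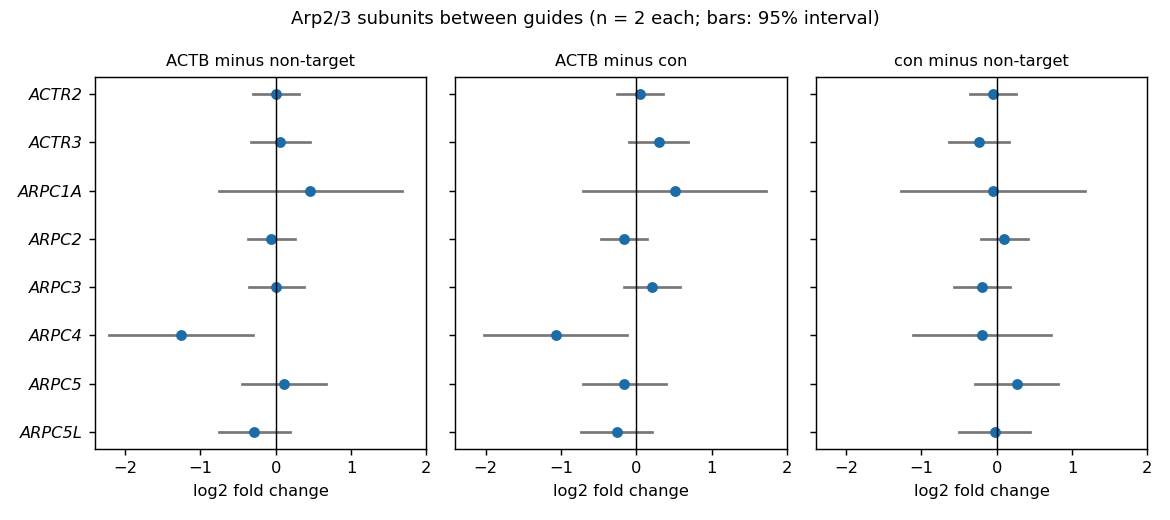
Log2 fold change of the 8 tested subunits (horizontal axes) between each pair of guides, with 95% intervals from the quasi-likelihood fit of the 6 FHY1-M3 libraries. Every interval includes 0 except those of ARPC4 in the panels with the ACTB sgRNA, where the adjusted p-values are 0.475 and 1.

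Genes that act with the complex were taken from 7 lists of 69 genes in all, of which 65 were tested against input. Of these 4 rose and 9 fell, beside the 11.4% and 8.60% of all genes called in each direction, and the median log2 fold change was -0.01. Of the 9, NCKAP1L passed the low-count filter only through the inputs, where it was the higher, so its direction was fixed by the filter. Without it 4 of 64 rose and 8 fell, with a median of 0.01. Between guides 0 of 64 tested genes passed in each of the 3 comparisons in edgeR, with 3, 1 and 5 at an unadjusted p under 0.05 for ACTB against non-target, ACTB against con and con against non-target sgRNA, beside the 1001, 494 and 673 of 12808 genes in all. DESeq2 also called 0 in each.

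Among WASP family and other nucleation promoting factors, 2 of 9 tested genes fell against input and 0 rose (median -0.01). The shares over all genes tested were 8.60% lower and 11.4% higher. WASF1, which encodes WAVE1, fell from 107 ± 22.4 CPM in the inputs to 52.7 ± 7.08 CPM (log2 -1.02, SE 0.26, adjusted p = 0.00392), without overlap. WASF2, the gene of WAVE2, fell by 0.56 on the log2 scale (SE 0.19, adjusted p = 0.0284), with overlap. In the WAVE regulatory complex, which holds WAVE proteins inactive until RAC1 binds, 2 of 6 fell and 0 rose (median -0.30), or 3 of 7 (median -0.44) with NCKAP1L. ABI2 fell from 153 ± 25.1 to 86.8 ± 12.2 CPM (log2 -0.84, SE 0.20, adjusted p = 0.00292) and NCKAP1 from 223 ± 18.4 to 164 ± 15.9 CPM (-0.44, SE 0.16, adjusted p = 0.0485). NCKAP1L, the blood cell form of NCKAP1, had an adjusted p of 0.0196 on 4 counts in the 6 FHY1-M3 libraries and 4, 8 and 0 in the inputs, and is not read as a change. Of 5 genes listed for the WASH complex, which activates Arp2/3 on endosomes, 2 rose and 0 fell (median 0.72). These 5 are not the whole complex and include both WASHC2A and WASHC2C. WASHC1 was counted among the nucleation promoting factors instead. It was not called, and its levels overlapped between the 2 kinds of library. WASHC4 rose by 0.94 (SE 0.33, adjusted p = 0.0368) and WASHC2A by 1.16 (SE 0.41, adjusted p = 0.0423), although WASHC2A has a near-identical copy, WASHC2C, with which reads may have been shared.

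Of 12 N-WASP partners and adaptors 1 rose and 2 fell (median -0.05). Over all genes tested 11.4% were called higher and 8.60% lower. In lists this small, a count of 1 or 2 is not read as a trait of the list. CDC42, the small GTPase that activates N-WASP, fell from 247 ± 36.3 to 141 ± 21.9 CPM (log2 -0.81, SE 0.16, adjusted p = 0.000368). WIPF1, the gene of the WASP-binding protein WIP, fell from 59.5 ± 22.3 to 29.7 ± 7.47 CPM (-1.05, SE 0.35, adjusted p = 0.0292). TRIP10, which encodes the F-BAR adaptor CIP4, rose from 68.9 ± 14.4 to 116 ± 18.9 CPM (0.74, SE 0.24, adjusted p = 0.0263). Of 11 inhibitors and debranching factors 1 rose and 0 fell (median -0.33). It was CORO1B, a coronin that counters branches, at 72.7 ± 16.0 against 36.0 ± 19.4 CPM (1.04, SE 0.34, adjusted p = 0.0249). CORO1C, another coronin, differed by -0.36 (SE 0.20, adjusted p = 0.216). Of 17 genes listed as formins and other nucleators of unbranched filaments 0 rose and 1 fell (median 0.20). The gene that fell was COBLL1 (-1.33, SE 0.37, adjusted p = 0.00913). It was listed as a relative of cordon-bleu, and its own role as a nucleator is not established. The formin DIAPH1 differed by 0.03 (SE 0.16). Of 4 capping proteins 0 rose and 1 fell (median -0.15), CAPZB, from 170 ± 40.0 to 84.1 ± 2.25 CPM (-1.0, SE 0.20, adjusted p = 0.000351), and CAPZA1 differed by -0.47 (SE 0.21, adjusted p = 0.106).

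**Figure D5:**
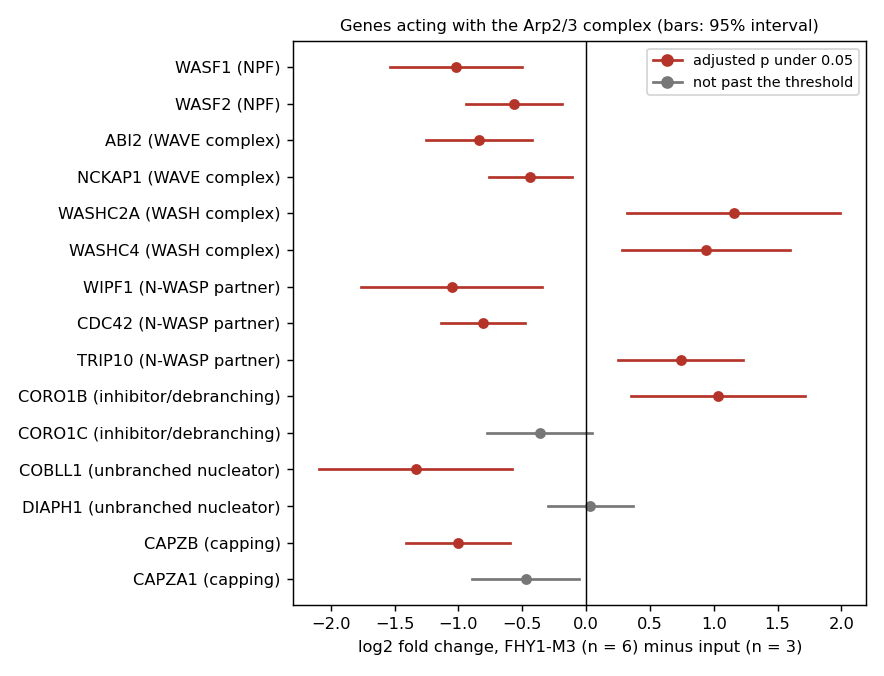
Log2 fold change between the FHY1-M3 libraries and input (horizontal axis) for named genes that act with the Arp2/3 complex, with 95% intervals; red marks an adjusted p under 0.05 and NPF stands for nucleation promoting factor. WASF1, ABI2, CDC42 and CAPZB lie to the left of 0 and WASHC4, TRIP10 and CORO1B to the right, and NCKAP1L is left out for its low counts.

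WASF1, ABI2, CDC42, COBLL1 and CAPZB passed in all 18 alternatives. The other calls depended on single libraries, and some also on settings that kept all libraries. Over all alternatives, WASHC2A lost its call in 13 of 18, NCKAP1 in 11, WASHC4 in 10 and CORO1B in 7. NCKAP1L lost its call in 5 of 11. For these genes the single-library losses given next are only a part. How many of all genes were called without each library is not given, so these losses are not read as particular to these genes. The number of the 65 genes called fell from 13 to 5 without ACTB sgRNA replicate 1 or non-target replicate 1, to 7 without con replicate 1 and to 8 without con replicate 2. Adjusted p-values without ACTB sgRNA replicate 1 were 0.0907 for WASF2, 0.101 for NCKAP1, 0.104 for WASHC2A, 0.0695 for WASHC4, 0.0634 for WIPF1, 0.0612 for TRIP10 and 0.0713 for CORO1B. Without ACTB sgRNA replicate 2 they were 0.0844 for NCKAP1, 0.0793 for NCKAP1L, 0.0575 for WASHC4 and 0.0601 for WIPF1. Without con replicate 1 they were 0.117 for WASF2, 0.0591 for NCKAP1, 0.082 for WASHC2A, 0.142 for WASHC4 and 0.102 for WIPF1. Without con replicate 2 they were 0.153 for NCKAP1, 0.104 for NCKAP1L, 0.0668 for WASHC2A, 0.119 for TRIP10 and 0.0749 for CORO1B. Without non-target replicate 1 they were 0.0665 for WASF2, 0.118 for NCKAP1, 0.0751 for NCKAP1L, 0.0523 for WASHC2A, 0.0844 for WASHC4, 0.0546 for WIPF1, 0.0519 for TRIP10 and 0.0545 for CORO1B. Without non-target replicate 2 they were 0.0668 for NCKAP1L, 0.0824 for WASHC2A and 0.0502 for WIPF1. Without input replicate 1 they were 0.0557 for WASF2, 0.122 for NCKAP1, 0.14 for WASHC2A, 0.0909 for WASHC4 and 0.0814 for TRIP10. Without input replicate 2 they were 0.167 for WASF2, 0.0852 for NCKAP1, 0.253 for WASHC4, 0.287 for WIPF1, 0.0774 for TRIP10 and 0.117 for CORO1B. Without input replicate 3 they were 0.0534 for NCKAP1, 0.184 for WASHC2A and 0.121 for CORO1B.

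Across the 9 libraries, the summed level of the 9 subunits was most like that of CARS, DHRS7, CEP250, OSER1 and CKAP2L among 8820 other genes with a mean of at least 20 CPM. Pearson correlations of log2 levels were 0.99, 0.99, 0.99, 0.98 and 0.98. The points fall into the FHY1-M3 and input groups, which differ in depth, and all genes share the same libraries. CARS, for example, measured 178 ± 20.6 CPM in the FHY1-M3 libraries (n = 6) and 98.5 ± 44.7 CPM in the inputs (n = 3).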

How the data were processed

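The deposited table gives whole-number counts of reads for each gene symbol. Its columns sum to different totals and hold whole numbers only, so no normalization by the authors is visible. The tools named in the submitters' processing notes are cutadapt 4.3 and STAR 2.7.10b, along with deepTools, and the genome build is hg38. Which program counted the reads, on which strand and with which annotation is not given in the sources used here. Between 88.5% and 95.0% of a library's values from 1 to 20 were even, as when both reads of a pair add 1 each, and intervals from counts may therefore be too narrow.

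Tests were two-sided quasi-likelihood F tests in edgeR 4.0.16 (R 4.3.3) after TMM scaling and removal of genes of low count by group. Guides were compared in 1 fit of the 6 FHY1-M3 libraries and input in 1 fit of all 9. Standard errors are the absolute log2 fold change divided by the root of F. CPM are on the scale of the fit of all 9. Replicates differed by more than sampling noise (chi-square per degree of freedom 1.80 to 5.12 on halved counts). Alternatives changed the scaling, the filters, the tool (DESeq2 1.42.0), the depth and the libraries used, and 1 had the replicate number as a block. The scripts were tested on simulated data.

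The subunits and gene lists were chosen with earlier results of these data known. All 9 subunits are named. From each other list up to 3 called genes with the largest change against input are named, and the most abundant ones up to 2 where fewer passed. The 5 genes most like the complex were taken by Pearson correlation.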

Additional observations from a re-analysis of the deposited data

How the results depend on the processing

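Against input, edgeR called 1 subunit, ARPC5L, after thinning and between 1 and 3 when single libraries were left out (1 without input replicate 1 or 3), and 5 to 12 of the genes that act with the complex against 13, with 16 in DESeq2 and 12 among genes that also passed the filter between guides, an alternative chosen after seeing the data. The share of all genes called under each alternative is not given here, so these counts are not read as a result about these genes. The ratio of the complex's share of counts was 1.23 to 1.42 without single libraries. Between guides 0 subunits passed in any alternative run. Values near 0 changed sign. ACTR2 against input was 0.012 with library totals only. Under median-ratio scaling ARPC5 was -0.043, ACTR3B -0.051 and DIAPH1 -0.046, with a mean of at least 10 CPM they were -0.046, -0.053 and -0.047, and in DESeq2 -0.043, -0.054 and -0.046. With halved counts ARPC5 was -0.0057. After thinning ACTR3 was -0.029, ARPC5 -0.22, ACTR3B -0.10 and DIAPH1 -0.14. Leaving out single libraries gave, against input, -0.20 to 0.080 for ACTR2, -0.071 to 0.78 for ARPC4, -0.069 to 0.26 for ARPC5, -0.19 to 0.18 for ACTR3B and -0.084 to 0.27 for DIAPH1. For ACTB against non-target sgRNA it gave -0.20 to 0.25 for ACTR2, -0.21 to 0.41 for ACTR3, -0.13 to 0.014 for ARPC2, -0.23 to 0.22 for ARPC3 and -0.091 to 0.33 for ARPC5. For ACTB against con sgRNA it gave -0.0071 to 0.11 for ACTR2, -0.037 to 0.42 for ARPC3 and -0.36 to 0.066 for ARPC5. For con against non-target sgRNA it gave -0.25 to 0.20 for ACTR2, -0.51 to 0.12 for ACTR3, -0.37 to 0.35 for ARPC1A, -0.75 to 0.76 for ARPC4 and -0.26 to 0.17 for ARPC5L. Where 1 library of a guide was left, it was assumed to vary like the other groups. The share of ARPC1B in the inputs ran from 10.5% to 55.2%. The cause of these changes was not tested. The replicate numbers did not pair the samples, since deviations of libraries with the same number correlated at -0.0111 to 0.0225. With the replicate block 2 subunits passed against input, ARPC5L at 1.38 (adjusted p = 0.00263) and ARPC2 at 0.56 (0.0495), and ARPC3 did not (0.0559). In the same block ACTR2 was 0.014, ACTR3 -0.0014 and ARPC5 -0.045 against input, and ARPC3 was -0.000465 for ACTB against non-target sgRNA. The inputs' 10 to 20 counts of ARPC5L and 2 to 12 of ARPC4 limit what could be detected there.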
